A study of Mus musculus with 31 samples.

Results

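The genes of glycolysis and of the transcriptional response to low oxygen were followed through 31 RNA-seq libraries of C57BL/6 mice that were wild type or lacked the lysophospholipid-binding receptor gene Gpr34. The set was a fixed list of 33 symbols, from the glucose transporters to the lactate exporters and the hypoxia-induced genes. All 33 were found among the 29120 gene IDs of the count files. All 33 passed the filter on low counts in both tissues.

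The dendritic cells were grown from the bone marrow of male mice aged 8 to 16 weeks in a 10 day culture fed with supernatant of GM-CSF-producing cells, and then left naive or given LPS, the bacterial cell wall lipid that activates Toll-like receptor signalling, for 8 h on day 11. The groups were LPS-treated cells labelled Gpr34-/- (n = 3), LPS-treated wild-type cells (n = 3), naive cells labelled Gpr34-/- (n = 3), naive wild-type cells (n = 3), Gpr34-/- spleens (n = 9) and wild-type spleens (n = 10). The spleens came from mice aged 12 weeks and had no treatment. The labels do not name the animals, so p-values here reflect variation among libraries, part of which may be technical.

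Glycolysis splits glucose into pyruvate in the cytosol, and hexokinase, phosphofructokinase and pyruvate kinase catalyse its nearly irreversible steps. Dendritic cells that meet LPS are known to raise glycolytic flux within hours. The alpha subunit of hypoxia-inducible factor (HIF) is marked for destruction by oxygen-dependent prolyl hydroxylases, and both low oxygen and NF-kappaB signalling can raise its level. HIF in turn switches on many genes of sugar uptake, glycolysis and lactate export by binding a short core motif in their promoters.

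Total counts ran from 38998746 to 74164853 in the 12 dendritic cell libraries and from 56834377 to 133277070 in the 19 spleens. Gpr34 had 0, 117 and 104 counts in LPS-treated cells labelled knockout against 125, 65 and 65 in LPS-treated wild-type cells, and 0, 120 and 4 counts in naive cells labelled knockout against 324, 199 and 226 in naive wild-type cells. Its counts were 42 to 156 in knockout spleens and 308 to 986 in wild-type spleens. Thus 3 of the 6 dendritic cell libraries labelled knockout held over 100 Gpr34 counts, and the labels do not say which part of the gene was removed. All 12 dendritic cell markers were detected in every dendritic cell group, while the summed B cell markers reached at most 9.57 CPM (counts scaled to the library total) and the 8 erythroid markers found at most 2.22 CPM. Macrophage markers, all 12 of them detected, summed to 1212 to 2243 CPM in LPS-treated cells labelled knockout, 1493 to 2128 CPM in LPS-treated wild-type cells, 921 to 1895 CPM in naive cells labelled knockout and 1574 to 1833 CPM in naive wild-type cells. The 8 stromal and endothelial markers summed to 511 CPM in LPS knockout-labelled replicate 2, against 52.4 and 67.3 CPM in the other replicates of its group and 42.1 to 111 CPM in all other dendritic cell libraries. Among naive cells labelled knockout, replicate 3 stood apart, with 9 cell cycle genes summing to 102 CPM against 337 and 426 CPM in the other replicates of its group and 348 to 394 CPM in naive wild-type cells.

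The promoters of the genes that the LPS comparison turns on are shown first. The 6 windows below belong to members whose call held under every alternative in both sets of cells and whose promoter was in the RefSeq table used. Hk2, Hk3, Slc2a6, P4ha1 and Pfkp were higher with LPS and Gpi1 was lower. Aldoc, which was also lower, had 1 core match in each of its windows, and Ndrg1 and Slc2a3 had no entry. Each line gives the 250 bases before the annotated start (RefSeq, GRCm38.p6), 5′ to 3′ on the gene's strand, with capitals marking the HIF core ACGTG or GCGTG read on either strand.
Hk2, chr6:82774455-82774704, minus strand: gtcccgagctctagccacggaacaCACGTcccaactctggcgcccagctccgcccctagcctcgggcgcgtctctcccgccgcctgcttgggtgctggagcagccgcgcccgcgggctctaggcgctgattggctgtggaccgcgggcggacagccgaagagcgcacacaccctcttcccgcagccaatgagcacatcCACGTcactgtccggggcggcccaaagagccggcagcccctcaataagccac
Hk3, chr13:55021386-55021635, minus strand: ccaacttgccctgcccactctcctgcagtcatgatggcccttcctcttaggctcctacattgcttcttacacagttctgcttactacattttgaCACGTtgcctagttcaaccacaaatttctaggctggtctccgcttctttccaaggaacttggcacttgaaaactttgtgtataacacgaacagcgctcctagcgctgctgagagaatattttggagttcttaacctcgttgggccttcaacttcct
Slc2a6, chr2:27027999-27028248, minus strand: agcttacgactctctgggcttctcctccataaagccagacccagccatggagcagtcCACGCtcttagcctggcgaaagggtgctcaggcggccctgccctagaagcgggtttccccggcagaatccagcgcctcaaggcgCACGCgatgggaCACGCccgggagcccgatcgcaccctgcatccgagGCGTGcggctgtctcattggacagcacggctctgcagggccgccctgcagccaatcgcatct
P4ha1, chr10:59323046-59323295, plus strand: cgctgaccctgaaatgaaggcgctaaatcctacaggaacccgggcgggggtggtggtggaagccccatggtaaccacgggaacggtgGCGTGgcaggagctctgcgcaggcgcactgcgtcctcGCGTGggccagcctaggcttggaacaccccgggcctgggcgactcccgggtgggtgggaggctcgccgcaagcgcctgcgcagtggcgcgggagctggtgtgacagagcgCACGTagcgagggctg
Pfkp, chr13:6648772-6649021, minus strand: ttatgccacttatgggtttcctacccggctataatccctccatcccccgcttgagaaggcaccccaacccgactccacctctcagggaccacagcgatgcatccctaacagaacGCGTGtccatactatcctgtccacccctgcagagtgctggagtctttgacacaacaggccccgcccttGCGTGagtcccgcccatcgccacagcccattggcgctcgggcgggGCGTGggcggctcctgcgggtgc
Gpi1, chr7:34230337-34230586, minus strand: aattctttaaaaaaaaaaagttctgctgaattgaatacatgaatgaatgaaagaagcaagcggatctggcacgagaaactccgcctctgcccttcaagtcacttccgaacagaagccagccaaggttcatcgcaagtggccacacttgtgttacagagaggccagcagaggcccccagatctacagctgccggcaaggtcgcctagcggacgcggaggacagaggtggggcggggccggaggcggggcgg
The core was found in 36 of the 45 member windows, which covered 31 members, and in 38.6% of all 32851 windows of the same length. Some windows of Aldoa, Eno1 and Pfkm overlap, and the same match is counted in each of them. The list was chosen for glycolysis and the response to low oxygen, so this difference is not a test of HIF. ACGTG alone was in 22 of the 45 and in 16.6% of all windows, and GCGTG alone was in 24 of the 45 and in 28.2% of all windows. CACGTG, the E-box that overlaps ACGTG, was in 6 of the 45 and in 6.02% of all windows. The kappaB consensus was found in 1 of the 45, that of Vegfa, and in 3.90% of all windows. Among the windows shown Slc2a6 had 4 core matches, P4ha1 and Pfkp 3, Hk2 2, Hk3 1 and Gpi1 0. Members that did not pass the LPS test also held several, with 5 in 1 window each of Ldha and Bnip3 and 4 in those of Ankrd37 and Slc16a1. Each CACGTG counts as 2 overlapping matches, 1 per strand, and it occurred 2 times in that window of Ldha and 1 time each in Bnip3 and Slc16a1. In Ankrd37 the matches 155 and 152 bases before the start overlap. In these windows numbers of matches are therefore not numbers of separate sites, whereas the 4 matches of Slc2a6 do not overlap. A match describes these letters and is not evidence that a factor binds there.

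LPS moved a large share of the list in wild-type dendritic cells. The sugar transporter Slc2a6, the hexokinases Hk2 and Hk3, the hypoxia-induced genes Ndrg1 and P4ha1, and the prolyl hydroxylase Egln3 were higher. The aldolase Aldoc, the isomerase Gpi1 and the kinase Pdk1, itself a hypoxia-induced member, were lower. By edgeR's quasi-likelihood test with Benjamini-Hochberg adjustment over all genes tested, at 0.05, 18 of 33 members were higher, where 18.1% of the 16965 genes tested were, and 3 were lower, where 15.8% were. Called in either direction were 33.9% of all genes. In cells labelled knockout 14 of 33 were higher, where 15.3% of all genes were, and 2 were lower, where 13.4% were, with 28.7% of all genes called in either direction. All 16 members called in cells labelled knockout were also called in wild-type cells, which had 5 more. The median log2 fold change of the members was 0.59 in wild-type cells and 0.45 in cells labelled knockout, beside -0.03 and -0.02 over all genes tested.

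**Figure D1:**
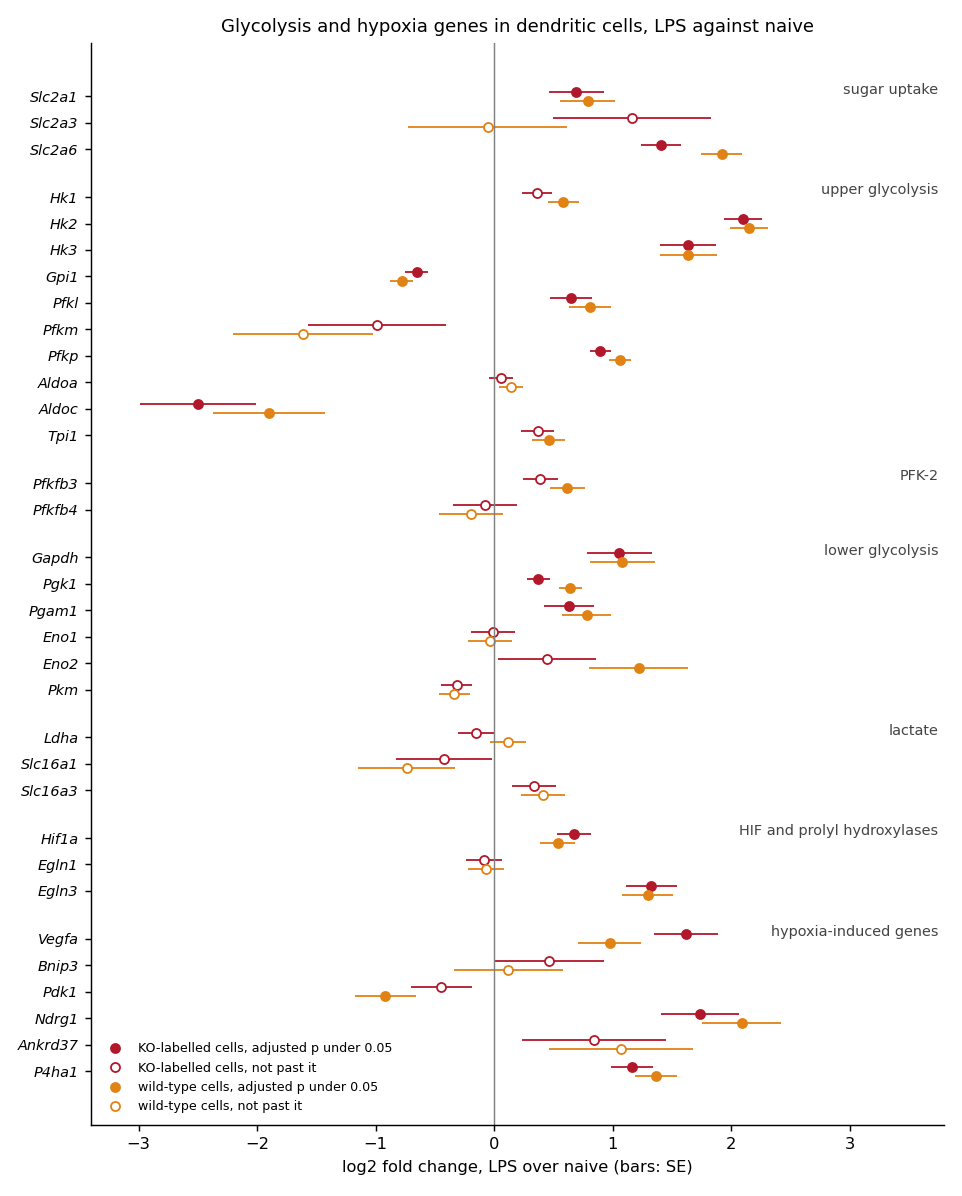
Log2 fold change (LPS over naive, x axis) of all 33 members by role, in dendritic cells labelled knockout (red) and wild type (orange), with SE bars and filled points for adjusted p under 0.05. Hk2, Ndrg1, Slc2a6 and Hk3 lie farthest to the right in wild-type cells and Aldoc farthest to the left in both, while Ldha, Aldoa, Eno1 and Egln1 lie close to 0.

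These counts depend on how libraries of unequal composition are scaled. Without composition factors the median of all genes moved to -0.44 in wild-type cells and -0.35 in cells labelled knockout. On that scale 7 members were higher and 7 lower in wild-type cells, against 8 higher and 5 lower in cells labelled knockout. The shares of all genes called on that scale are not given here, and those above do not apply to it. Slc2a1, Hk1, Pfkl, Pfkfb3, Tpi1, Gapdh, Pgk1, Pgam1, Eno2, Hif1a and Vegfa lost their call in wild-type cells on that scale, where each still had a positive log2 fold change. In cells labelled knockout Slc2a1, Pfkl, Gapdh, Pgk1, Pgam1 and Hif1a lost it, each with a positive log2 fold change. Hk2, Hk3, Slc2a6, Ndrg1, P4ha1, Pfkp, Aldoc and Gpi1 were called in both sets of cells under all 21 alternatives, as were Egln3 in wild-type cells and Vegfa in cells labelled knockout.

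Other RNA moved with LPS too. The 9 cell cycle genes summed to 54.8 to 77.0 CPM in LPS-treated and 348 to 394 CPM in naive wild-type cells, and 8 of the 9 were lower, as in cells labelled knockout, where they summed to 54.4 to 79.7 CPM with LPS and 102 to 426 CPM without. The 10 ribosomal protein genes summed to 3038 to 3263 CPM with LPS and 4525 to 4983 CPM without, and 3 of them were lower. The 11 neutrophil markers summed to 760 to 857 CPM with LPS and 66.1 to 79.1 CPM without, with the granule genes Elane and Mpo at 0 in both groups. Only 3 of the 10 neutrophil markers tested were higher in wild-type cells, with a median log2 fold change of 0.41 over the 10. Of the 12 dendritic cell markers 9 were higher. Of the 7 stromal and endothelial markers tested, 1 was higher in wild-type cells and 3 in cells labelled knockout. Without LPS knockout-labelled replicate 2 the members' counts in cells labelled knockout were 13 higher and 2 lower. The share of all genes called without that library is not given here. The part of these shifts in the members' changes was not tested, and fewer cells of a type and less RNA per cell cannot be told apart in bulk RNA.

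Of the 3 sugar transporters, Slc2a6 and Slc2a1 were higher with LPS in both sets of cells. Slc2a6 (GLUT6, a transporter found mostly on internal membranes; GRCm38 chromosome 2, 27021363 to 27027998) had 686, 661 and 957 CPM in LPS-treated against 195, 194 and 219 CPM in naive wild-type cells, and 714, 469.8 and 626 CPM in LPS-treated against 228, 242 and 212 CPM in naive cells labelled knockout. Every LPS library lay above every naive library. Groups failed to overlap in 50.9% of all genes tested in wild-type cells and in 41.7% in cells labelled knockout. Its log2 fold change was 1.92 (SE 0.17, edgeR adjusted p = 1.75e-05) in wild-type cells and 1.41 (SE 0.17, edgeR adjusted p = 0.000174) in cells labelled knockout.

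Slc2a1 (GLUT1, the widespread basal glucose transporter) had 77.9, 55.8 and 106 CPM in LPS-treated against 44.9, 39.2 and 54.0 CPM in naive wild-type cells, and 63.9, 59.0 and 94.0 CPM in LPS-treated against 45.8, 45.5 and 42.6 CPM in naive cells labelled knockout. The groups did not overlap, but the lowest LPS library, wild-type replicate 2, lay close to the highest naive one. Slc2a1 had a log2 fold change of 0.79 (SE 0.23, edgeR adjusted p = 0.0219) in wild-type cells and 0.70 (SE 0.23, edgeR adjusted p = 0.0442) in cells labelled knockout. The wild-type call ended without naive wild-type replicate 1 or 2 or LPS wild-type replicate 3, and the call in cells labelled knockout held in only 3 of the 12 fits that each left out 1 library, those without LPS wild-type replicate 2 or 3 or LPS knockout-labelled replicate 3. Its share of the counts of the 3 transporters was smaller with LPS, at 9.29% ± 1.33 against 18.3% ± 1.60 without in wild-type cells (SD, n = 3 each). Slc2a3 (GLUT3, a high-affinity glucose transporter) stayed at 0.877 to 6.82 CPM with LPS and 0.837 to 3.96 CPM without, and passed the test in neither set.

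The hexokinases, which trap glucose as glucose 6-phosphate, moved in the same direction but by different amounts. Hk2 (the inducible, mitochondria-binding form; GRCm38 chromosome 6, 82725025 to 82774454) had 86.8, 93.5 and 99.2 CPM in LPS-treated against 19.8, 20.2 and 23.1 CPM in naive wild-type cells, and 81.3, 71.3 and 106 CPM in LPS-treated against 16.9, 22.6 and 20.7 CPM in naive cells labelled knockout. No LPS library came near any naive library. On the log2 scale the difference was 2.15 (SE 0.16, edgeR adjusted p = 5.01e-06) in wild-type cells and 2.10 (SE 0.16, edgeR adjusted p = 7.1e-06) in cells labelled knockout.

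Hk3 (a hexokinase typical of myeloid cells; GRCm38 chromosome 13, 55005985 to 55021385) had 402, 365 and 612 CPM in LPS-treated against 144, 137 and 161 CPM in naive wild-type cells, and 509, 316 and 583 CPM in LPS-treated against 171, 142 and 140.4 CPM in naive cells labelled knockout. The groups were again apart, and the LPS libraries varied more among themselves than the naive ones. The log2 fold change was 1.64 (SE 0.24, edgeR adjusted p = 0.000397) in wild-type cells and 1.63 (SE 0.24, edgeR adjusted p = 0.000534) in cells labelled knockout. Hk1, the constitutive form, was higher by 0.59 (SE 0.13, edgeR adjusted p = 0.00476) in wild-type cells, and its log2 fold change of 0.36 (SE 0.13, edgeR adjusted p = 0.0565) in cells labelled knockout did not pass.

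Shares within a library need no scaling between libraries. Hk2 made up 10.8, 12.0 and 9.74% of all hexokinase counts (Hk1, Hk2 and Hk3) in LPS-treated wild-type cells against 5.29, 5.53 and 5.85% in naive wild-type cells, and 10.1, 11.3 and 10.5% in LPS-treated cells labelled knockout against 4.44, 5.83 and 5.96% in naive ones. Hk3 averaged 52.4% ± 6.87 in LPS-treated against 39.0% ± 1.63 in naive wild-type cells, and 57.2% ± 6.65 against 40.7% ± 4.24 in cells labelled knockout (SD, n = 3 each). Both shares were higher in every LPS library than in any naive library of the same label. The exact two-sided permutation p was 0.10 for each, the smallest that 3 against 3 allows, and 0.232 after adjustment over the 45 share tests. Such separation was common: of the 9 shares computed, 7 were higher and 2 lower without overlap in wild-type cells. In cells labelled knockout 3 were higher and 2 lower without overlap.

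**Figure D2:**
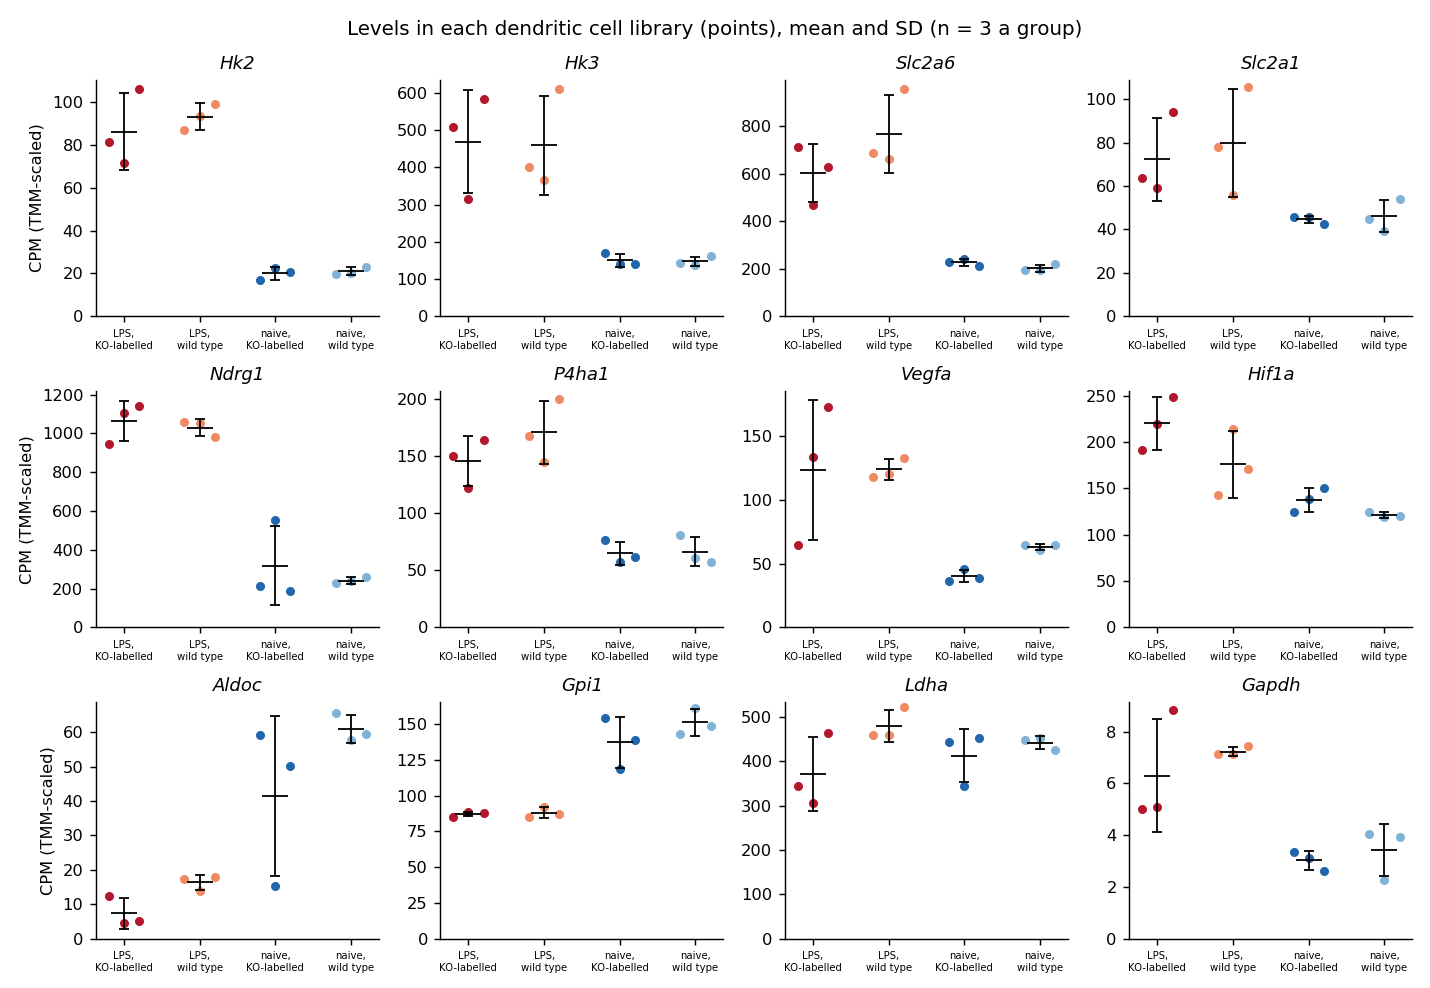
CPM on TMM-scaled library sizes (y axis, from 0) of 12 members in each dendritic cell library (points), with group means and SD bars (n = 3), in LPS-treated cells labelled knockout, LPS-treated wild-type cells, naive cells labelled knockout and naive wild-type cells. LPS libraries lie above naive ones for Hk2 and Slc2a6 and below those of the same label for Aldoc. Over both labels Ldha lies at 305 to 522 CPM with LPS and 343 to 453 CPM without. Its groups overlap in cells labelled knockout and lie next to each other without overlap in wild-type cells.

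In the middle of upper glycolysis the phosphofructokinases, which commit sugar to the pathway, differed by isoenzyme. Pfkp, the platelet type, held 1115, 1131 and 1210.3 CPM in LPS-treated against 533, 539.8 and 583 CPM in naive wild-type cells. It rose by 1.06 on the log2 scale (SE 0.09, edgeR adjusted p = 1.26e-05) there and by 0.90 (SE 0.09, edgeR adjusted p = 5.41e-05) in cells labelled knockout. Pfkl, the liver type, rose by 0.81 and 0.65 on the same scale, though its call in cells labelled knockout ended without naive knockout-labelled replicate 3 or 4 or LPS knockout-labelled replicate 4, and in the fit of those 6 libraries alone. Pfkm, the muscle type, had 1.46, 1.90 and 8.59 CPM with LPS against 11.0, 12.5 and 12.8 CPM without in wild-type cells, and its log2 fold change of -1.61 (SE 0.59, edgeR adjusted p = 0.0574) did not pass.

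Pfkfb3, whose product makes fructose 2,6-bisphosphate, the activator of phosphofructokinase, rose by 0.62 (SE 0.15, edgeR adjusted p = 0.00787) in wild-type cells and had a log2 fold change of 0.39 (SE 0.15, edgeR adjusted p = 0.0704) in cells labelled knockout. Its relative Pfkfb4 did not pass in either. Pfkfb3 held 96.0% ± 0.93 of the counts of the pair in LPS-treated and 93.1% ± 0.41 in naive wild-type cells (SD, n = 3 each).

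Enzymes of the same stretch also fell. Aldoc (aldolase C, best known from brain; GRCm38 chromosome 11, 78322968 to 78327781) had 17.4, 13.7 and 17.9 CPM in LPS-treated against 65.6, 57.8 and 59.4 CPM in naive wild-type cells, and 12.5, 4.43 and 5.11 CPM in LPS-treated against 59.1, 15.2 and 50.1 CPM in naive cells labelled knockout. Every LPS library was below every naive library of the same label, and naive knockout-labelled replicate 3, the lowest naive one, lay within the range of LPS-treated wild-type cells. Its log2 fold change was -1.90 (SE 0.47, edgeR adjusted p = 0.00988) in wild-type cells and -2.50 (SE 0.49, edgeR adjusted p = 0.00314) in cells labelled knockout, and -2.92 without that library. Aldoa, the main aldolase of most tissues, did not pass, at 1649 to 1916 CPM in LPS-treated and 1545 to 1637 CPM in naive wild-type cells, and its log2 fold changes of 0.14 and 0.06 turned to -0.27 in both sets without composition factors. Aldoc was 0.920% ± 0.13 of the aldolase counts (Aldoa and Aldoc) in LPS-treated against 3.69% ± 0.35 in naive wild-type cells, with an exact permutation p of 0.10, the smallest possible.

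Gpi1, which interconverts glucose and fructose 6-phosphates, fell to 84.9, 92.4 and 87.1 CPM in LPS-treated wild-type cells, against 143, 162 and 149 CPM in naive ones. On the log2 scale the difference was -0.78 (SE 0.10, edgeR adjusted p = 0.000159), and -0.65 (SE 0.10, edgeR adjusted p = 0.00064) in cells labelled knockout. Tpi1, triosephosphate isomerase, rose by 0.46 (SE 0.14, edgeR adjusted p = 0.0244) in wild-type cells, a call that ended without any 1 of naive wild-type replicates 1, 2 and 4, naive knockout-labelled replicate 4 and LPS wild-type replicate 3.

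In lower glycolysis, where the 3-carbon sugars become pyruvate, 4 of 6 members were higher in wild-type cells, 3 of 6 were higher in cells labelled knockout and none was lower in either, where 18.1% and 15.3% of all genes were higher. Gapdh, the dehydrogenase often used as a reference gene, had 7.13, 7.12 and 7.44 CPM in LPS-treated against 4.05, 2.26 and 3.93 CPM in naive wild-type cells, and 5.00, 5.07 and 8.82 CPM in LPS-treated against 3.36, 3.10 and 2.61 CPM in naive cells labelled knockout. The groups did not overlap. On plain library sizes Gapdh averaged 6.24 CPM in LPS-treated and 3.92 CPM in naive wild-type cells. In spleens it averaged 97.3 CPM in wild-type and 104 CPM in knockout libraries on the same scale, and its level is uncertain between tissues. Gapdh had a log2 fold change of 1.08 (SE 0.27, edgeR adjusted p = 0.0103) in wild-type cells and 1.06 (SE 0.27, edgeR adjusted p = 0.0140) in cells labelled knockout. The call in cells labelled knockout ended without naive or LPS knockout-labelled replicate 4.

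Many counts lay on pseudogene copies of this gene. Of 172 annotated pseudogene copies of Gapdh (at least 90% identical over 200 bases), 52 had counts. They held 48.4% of the counts of gene and copies in LPS-treated and 66.7% in naive wild-type cells, and 49.9% in LPS-treated and 68.6% in naive cells labelled knockout. With those counts added, a step chosen after the data were seen, the log2 fold change was 0.42 (edgeR adjusted p = 0.0671) in wild-type cells and 0.39 (edgeR adjusted p = 0.0927) in cells labelled knockout, so neither passed. For Pgam1, phosphoglycerate mutase, 3 copies held 63.1% in LPS-treated and 65.1% in naive wild-type cells, and most of it lay on Pgam1-ps2. Its log2 fold changes were 0.78 in wild-type cells and 0.63 in cells labelled knockout on the gene alone, and 0.70 (edgeR adjusted p = 0.0115) and 0.62 (edgeR adjusted p = 0.0232) with the copies. For Gpi1 the copy Gm1840 held 34.3% in LPS-treated and 33.5% in naive wild-type cells, and its fall of 0.76 with the copy added (edgeR adjusted p = 0.000220) was close to that of the gene alone.

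**Figure D3:**
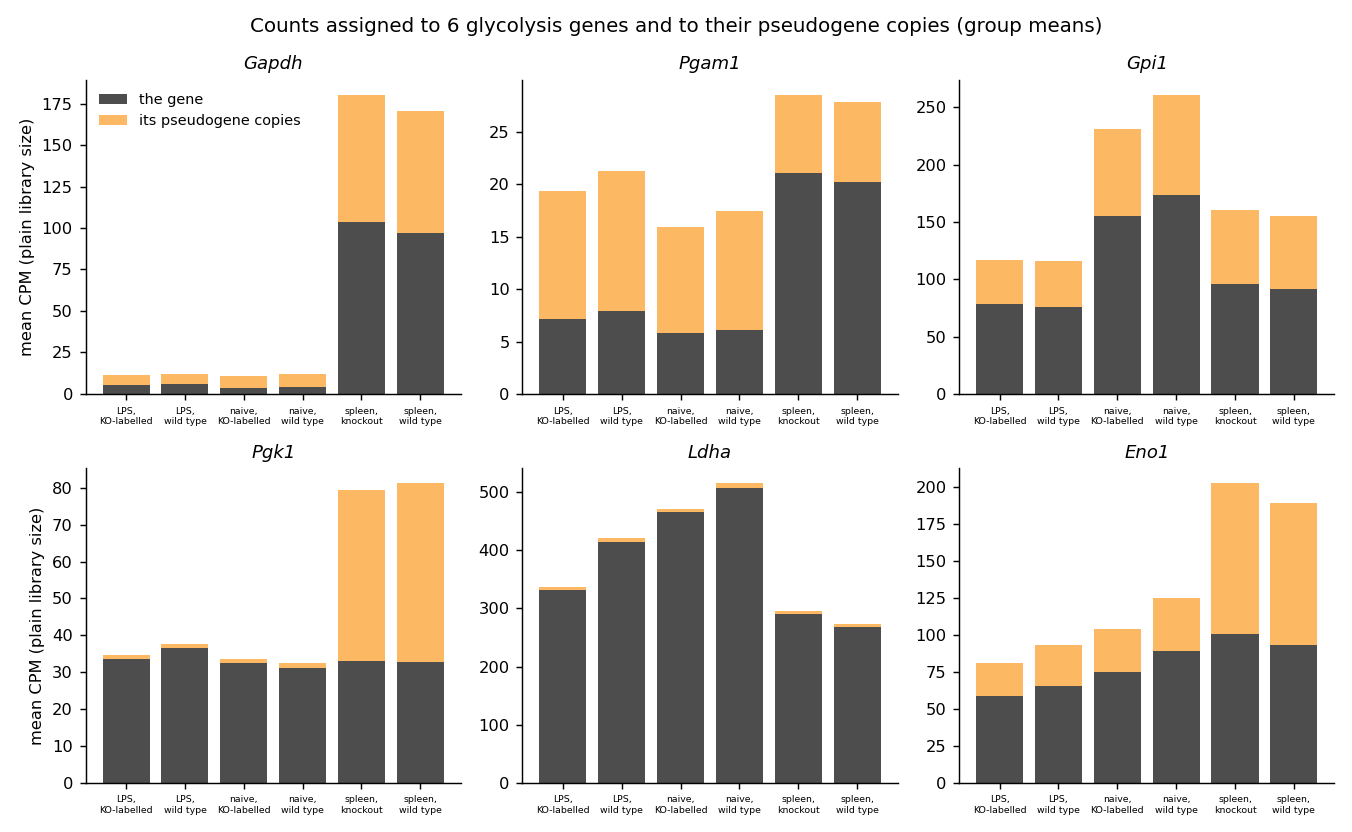
Mean CPM on plain library sizes (y axis, from 0) counted for 6 members (dark) and for their pseudogene copies (light, stacked on top) in the 4 dendritic cell groups and the 2 spleen groups. Copies of Pgk1 held 59.3% of the pooled counts in wild-type spleens and 3.66% in naive wild-type dendritic cells. Counts of Gapdh were far lower in dendritic cells than in spleens with or without its copies. Its leading copies, Gm12033 and Gm13394, had 0 CPM in naive wild-type dendritic cells and 30.1 and 22.9 CPM in wild-type spleens. Adding copies therefore does not settle the level of Gapdh between tissues.

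Pgk1, phosphoglycerate kinase, rose to 45.7, 43.1 and 38.5 CPM in LPS-treated wild-type cells, against 27.0, 27.0 and 27.4 CPM in naive ones, by 0.64 on the log2 scale (SE 0.10, edgeR adjusted p = 0.000553). In cells labelled knockout it rose by 0.37 (SE 0.10, edgeR adjusted p = 0.0151), a call that ended without LPS knockout-labelled replicate 4. The calls of Pgam1 were lost more often: in wild-type cells the call ended without naive wild-type replicate 1 or 2 or LPS wild-type replicate 3, and in cells labelled knockout it held in only 3 of 12 such fits, those without LPS wild-type replicate 2 or 3 or LPS knockout-labelled replicate 3. Eno2, the enolase best known from neurons, had 39.2, 35.0 and 39.9 CPM in LPS-treated against 19.96, 17.5 and 11.5 CPM in naive wild-type cells. The Eno2 log2 fold change of 1.22 (SE 0.42, edgeR adjusted p = 0.0436) stayed called in only 3 of 12 fits, those without 1 of the naive libraries labelled knockout. The main enolase, Eno1, and the pyruvate kinase gene Pkm did not pass in either set, with log2 fold changes of -0.03 and -0.33 in wild-type cells and -0.01 and -0.31 in cells labelled knockout.

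The lactate end of the pathway did not pass the test with LPS. Ldha, the lactate dehydrogenase subunit that favours lactate formation, had 459, 459.5 and 522 CPM in LPS-treated against 447, 453 and 426 CPM in naive wild-type cells, and 344, 305 and 464 CPM in LPS-treated against 443, 343 and 452 CPM in naive cells labelled knockout. The wild-type groups lay next to each other without overlap, and the groups labelled knockout overlapped. For Ldha the log2 fold change was 0.12 (SE 0.15, edgeR adjusted p = 0.601) in wild-type cells and -0.15 (SE 0.15, edgeR adjusted p = 0.494) in cells labelled knockout. Slc16a3 (MCT4, a lactate exporter of glycolytic cells) had log2 fold changes of 0.41 (edgeR adjusted p = 0.112) and 0.34 (edgeR adjusted p = 0.201), and Slc16a1 (MCT1, a lactate and pyruvate carrier) of -0.74 (edgeR adjusted p = 0.199) and -0.42 (edgeR adjusted p = 0.478), the first value in each pair being that of wild-type cells.

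Among the hypoxia genes, Hif1a itself rose moderately. It had 143, 214 and 171 CPM in LPS-treated against 125, 119 and 120.1 CPM in naive wild-type cells, and 191, 219.9 and 249 CPM in LPS-treated against 124, 139 and 150.1 CPM in naive cells labelled knockout. The groups did not overlap within either label. The log2 fold change was 0.54 (SE 0.14, edgeR adjusted p = 0.0146) in wild-type cells and 0.68 (SE 0.14, edgeR adjusted p = 0.00524) in cells labelled knockout, and the wild-type call ended without naive wild-type replicate 2 or 4 or LPS wild-type replicate 2. The calls of Hif1a and Egln3 in cells labelled knockout ended without the 3 libraries that held over 100 Gpr34 counts. That fit kept only replicate 2 among LPS-treated cells labelled knockout.

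Of the prolyl hydroxylases that mark HIF alpha for destruction, Egln3 (PHD3, itself a HIF target) rose and Egln1 (PHD2, the main oxygen sensor) did not pass. Egln3 had 5.94, 5.22 and 6.26 CPM in LPS-treated against 2.51, 1.98 and 2.58 CPM in naive wild-type cells. Its log2 fold change was 1.298 (SE 0.22, edgeR adjusted p = 0.000911) in wild-type cells and 1.33 (SE 0.22, edgeR adjusted p = 0.00103) in cells labelled knockout. Egln3 made up 30.3, 25.1 and 29.3% of the counts of both hydroxylases with LPS against 13.7, 11.7 and 14.1% without in wild-type cells, and 28.9, 28.7 and 30.3% against 12.0, 14.1 and 14.5% in cells labelled knockout. Each LPS share was above each naive share, and the exact permutation p was 0.10 in both, the smallest possible.

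**Figure D4:**
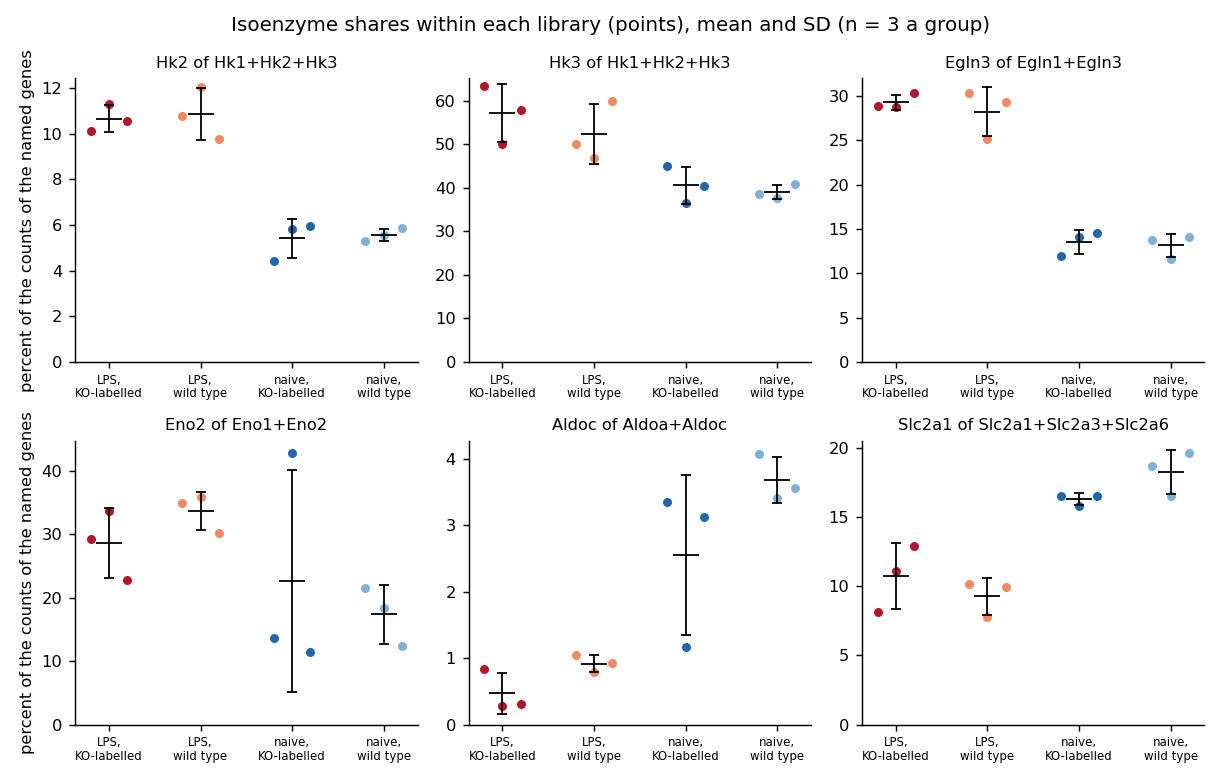
Percent of the counts of an isoenzyme family (y axis, from 0) held by Hk2, Hk3, Egln3, Eno2, Aldoc and Slc2a1 in each dendritic cell library (points), with means and SD bars (n = 3 a group). Hk2, Hk3 and Egln3 took larger and Aldoc and Slc2a1 smaller shares in every LPS library than in any naive library of the same label, while Eno2 overlapped in cells labelled knockout, where naive replicate 3 held 42.8%.

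Ndrg1, a stress-induced gene long known as a hypoxia marker, had the largest log2 fold change of the 6 hypoxia-induced members in wild-type cells. It had 1058, 1052 and 979 CPM in LPS-treated against 228, 237 and 260.1 CPM in naive wild-type cells, and 948, 1106 and 1139 CPM in LPS-treated against 215, 554 and 187 CPM in naive cells labelled knockout. Naive knockout-labelled replicate 3 was more than any other naive library and still below every LPS library. On the log2 scale the difference was 2.09 (SE 0.33, edgeR adjusted p = 0.000742) in wild-type cells and 1.74 (SE 0.33, edgeR adjusted p = 0.00268) in cells labelled knockout, and it was 2.39 in cells labelled knockout without that library.

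P4ha1, the catalytic subunit of the prolyl hydroxylase that modifies collagen, had 168, 145 and 199.8 CPM in LPS-treated against 80.6, 61.2 and 57.1 CPM in naive wild-type cells, and 150.4, 122 and 164 CPM in LPS-treated against 76.4, 57.2 and 61.4 CPM in naive cells labelled knockout. LPS libraries were all above naive ones. The log2 fold change was 1.37 (SE 0.18, edgeR adjusted p = 0.000211) in wild-type cells and 1.16 (SE 0.18, edgeR adjusted p = 0.000727) in cells labelled knockout.

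Vegfa, the growth factor for blood vessels, had 118, 120.3 and 133 CPM in LPS-treated against 64.2, 60.3 and 64.2 CPM in naive wild-type cells, and 64.2, 133 and 172 CPM in LPS-treated against 36.6, 45.6 and 38.4 CPM in naive cells labelled knockout. LPS knockout-labelled replicate 2 was far below the other libraries of its group, above the naive ones of its label and level with naive wild-type cells. It is the library with 511 CPM of stromal and endothelial markers, whose part in this value was not tested. Its log2 fold change was 0.98 (SE 0.27, edgeR adjusted p = 0.0155) in wild-type cells and 1.62 (SE 0.27, edgeR adjusted p = 0.00124) in cells labelled knockout, and the wild-type call ended without any 1 of the naive wild-type replicates.

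Pdk1, the kinase that shuts pyruvate out of the mitochondrial pyruvate dehydrogenase, fell to 8.56, 6.97 and 10.0 CPM in LPS-treated wild-type cells, against 17.2, 13.7 and 17.4 CPM in naive ones. On the log2 scale the difference was -0.92 (SE 0.26, edgeR adjusted p = 0.0183), a call that ended without LPS wild-type replicate 1 or 2, and -0.44 (SE 0.26, edgeR adjusted p = 0.229) in cells labelled knockout. Bnip3, a mitophagy receptor, and Ankrd37, an ankyrin repeat gene induced by HIF, passed in neither set, at 1.73 to 6.65 and 0.919 to 6.26 CPM with LPS and 1.89 to 4.88 and 1.11 to 2.87 CPM without. Thus 3 of the 6 hypoxia-induced members were higher and 1, Pdk1, was lower in wild-type cells, where 18.1% and 15.8% of all genes were. In cells labelled knockout 3 were higher and none was lower, where 15.3% and 13.4% of all genes were.

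Genes outside the list, taken from pathway lists chosen with earlier results of these data known, are given here by counts, to be read against the 18.1% of all genes that were higher and 15.8% that were lower in wild-type cells, and the 15.3% and 13.4% in cells labelled knockout. Of 27 other HIF target genes tested, 10 were higher and 2 lower in wild-type cells. Hilpda, a lipid droplet protein, averaged 49.0 ± 13.8 CPM in LPS-treated and 3.19 ± 0.44 CPM in naive cells (SD, n = 3 each), with a log2 fold change of 3.94 (SE 0.31), and Ak4, a mitochondrial adenylate kinase, had 2.94 (SE 0.36). In cells labelled knockout 9 of the 27 were higher and 3 lower, and Hilpda had a log2 fold change of 3.70 (SE 0.30).

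Of 11 HIF subunits and regulators tested, 3 were higher and 1 lower in wild-type cells, and the same counts held in cells labelled knockout, and they are near the shares over all genes given above. Cited2, which competes with HIF alpha for its coactivators, rose by 1.37 (SE 0.16) in both, and Vhl, the ubiquitin ligase subunit that captures hydroxylated HIF alpha, fell by 0.60 (SE 0.08) in wild-type cells and by 0.54 (SE 0.08) in cells labelled knockout. Of 13 genes of pyruvate entry into mitochondria, none was higher and 4 were lower in either set. Pdk2, another pyruvate dehydrogenase kinase, averaged 2.22 ± 0.81 CPM in LPS-treated and 8.24 ± 0.19 CPM in naive wild-type cells (SD, n = 3 each), and Mpc2, a subunit of the mitochondrial pyruvate carrier, averaged 13.2 ± 2.16 and 23.6 ± 1.01 CPM in the same order.

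Of 8 genes of the pentose phosphate pathway, which branches off at glucose 6-phosphate, 2 were higher and 3 lower in wild-type cells, and 1 was higher and 3 lower in cells labelled knockout. The counts of higher genes are near the shares over all genes, 18.1% and 15.3%. G6pdx, its entry enzyme, rose by 0.41 (SE 0.08) in wild-type cells and by 0.52 (SE 0.08) in cells labelled knockout, while Rpia, ribose 5-phosphate isomerase, fell by 1.29 (SE 0.25) and 1.31 (SE 0.25). Of 16 upstream signalling genes tested, 7 were higher and 4 lower in wild-type cells, and 8 higher and 4 lower in cells labelled knockout. Ikbke and Tbk1, kinases that act in the early glycolytic response of dendritic cells, rose by 1.98 (SE 0.19) and 1.13 (SE 0.11) in wild-type cells, and Txnip, which restrains glucose uptake, fell by 1.71 (SE 0.19). Of 16 other isoenzymes of glycolysis tested, 2 were higher and 5 lower in wild-type cells, and none was higher and 6 were lower in cells labelled knockout.

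No member passed the test between genotype labels in dendritic cells. In naive cells labelled knockout against naive wild-type cells, edgeR called 0 of 33 members and 0% of the 16965 genes, while 1 member, Vegfa, had an unadjusted p under 0.05, as had 6.71% of all genes. Vegfa had 36.6, 45.6 and 38.4 CPM in naive cells labelled knockout against 64.2, 60.3 and 64.2 CPM in naive wild-type cells, which did not overlap, as in 13.1% of all genes, with a log2 fold change of -0.65 (SE 0.27, edgeR adjusted p = 0.729). In LPS-treated cells labelled knockout against LPS-treated wild-type cells, edgeR again called 0 of 33 members and 0% of all genes, and 4 members (Ldha, Aldoc, Hk1 and Hif1a) had an unadjusted p under 0.05, as had 11.3% of all genes. Their log2 fold changes were -0.37, -1.16, -0.29 and 0.32, each with an edgeR adjusted p of at least 0.402. DESeq2 and limma voom also called no member in either comparison, each with 1 unadjusted p under 0.05 in naive cells, and 7 (DESeq2) and 5 (voom) with LPS. These comparisons share their libraries with the LPS comparisons.

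The size of the LPS response was not shown to differ between labels. The interaction called 0 of 33 members and 0% of all genes, and no member had an unadjusted p under 0.05, against 4% of all genes. Its log2 values ran from -0.77 (SE 0.58, Eno2) to 1.21 (SE 0.94, Slc2a3), and that of Slc2a6 was -0.52 (SE 0.24, edgeR adjusted p = 0.999885), which did not pass. Leaving out the 3 libraries labelled knockout that held over 100 Gpr34 counts kept only replicate 2 among LPS-treated cells labelled knockout. That library had the high sum of stromal and endothelial markers, and counts of members called in that fit are not given. Without LPS knockout-labelled replicate 4 alone, 9 members were higher and 2 lower with LPS in cells labelled knockout. The share of all genes called without replicate 4 is not given here, so this count is not set against it.

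In whole spleens 1 of 33 members was higher in the knockout and none was lower, where 0.0982% and 0.0785% of the 20371 genes tested were. That member was Slc16a3 (MCT4; GRCm38 chromosome 11, 120948480 to 120960868), which ranged from 10.9 to 23.2 CPM (median 17.4) in knockout spleens and from 9.65 to 13.3 CPM (median 11.8) in wild-type spleens. The groups overlapped, as in all but 0.0736% of genes, with knockout replicate 5 inside the wild-type range and the 8 others above it. The log2 fold change was 0.58 (SE 0.12, edgeR adjusted p = 0.0490). It ran from 0.52 to 0.65 when single libraries were left out, but stayed called in only 3 of those 19 fits, without wild-type replicate 2, knockout replicate 5 or knockout replicate 6, and it was not called without the filter on low counts (edgeR adjusted p = 0.0627).

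Spleen libraries differed in the cells they held. Erythroid markers summed to 29772 to 158206 CPM in knockout and 22909 to 69858 CPM in wild-type spleens, and exocrine pancreas markers to 14.5 to 7278 CPM in knockout and 12.2 to 2214 CPM in wild-type spleens. Slc16a3 had a log2 fold change of 0.58 without the haemoglobin genes and of 0.48 without knockout spleens 4, 6 and 9. Its share of the counts of the 2 lactate carriers was 34.9% ± 8.85 in knockout (n = 9) and 29.5% ± 4.28 in wild-type spleens (n = 10, SD), with an exact permutation p of 0.103.

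Another 8 spleen members had an unadjusted p under 0.05 and failed the adjustment, for a total of 9 of 33, where 17.4% of all genes did so. Slc2a1 had a median of 20.6 CPM (14.3 to 21.9) in knockout and 17.2 CPM (14.02 to 18.4) in wild-type spleens, with a log2 fold change of 0.26 (SE 0.08, edgeR adjusted p = 0.129). Pdk1 had a median of 47.1 CPM (32.0 to 54.1) in knockout and 59.3 CPM (40.8 to 71.4) in wild-type spleens, with a log2 fold change of -0.38 (SE 0.11, edgeR adjusted p = 0.106). Pfkl, Aldoa, Hk1, Ldha and Egln1 had positive and Hif1a a negative log2 fold change, between -0.33 and 0.37. Over all members the median was 0.17, beside 0.01 for all genes tested. Without knockout spleen 6 alone, Pfkl and Aldoa were called as higher (log2 fold changes 0.27 and 0.38) and Pdk1 as lower (-0.41). Each of these 3 was called in only 1 of the 19 fits that left out 1 spleen. The share of all genes called in that fit is not given here.

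Hk2, at 6.42 to 10.6 CPM (median 8.79) in knockout and 3.88 to 12.2 CPM (median 7.33) in wild-type spleens, and Gapdh, at medians of 108 CPM in knockout and 89.7 CPM in wild-type spleens, did not pass. Hif1a had medians of 74.7 CPM (44.0 to 104) in knockout and 84.8 CPM (69.6 to 113) in wild-type spleens, and Ldha 303 CPM (205 to 395) in knockout and 253 CPM (229 to 297) in wild-type spleens. All 4 pairs of ranges overlapped.

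**Figure D5:**
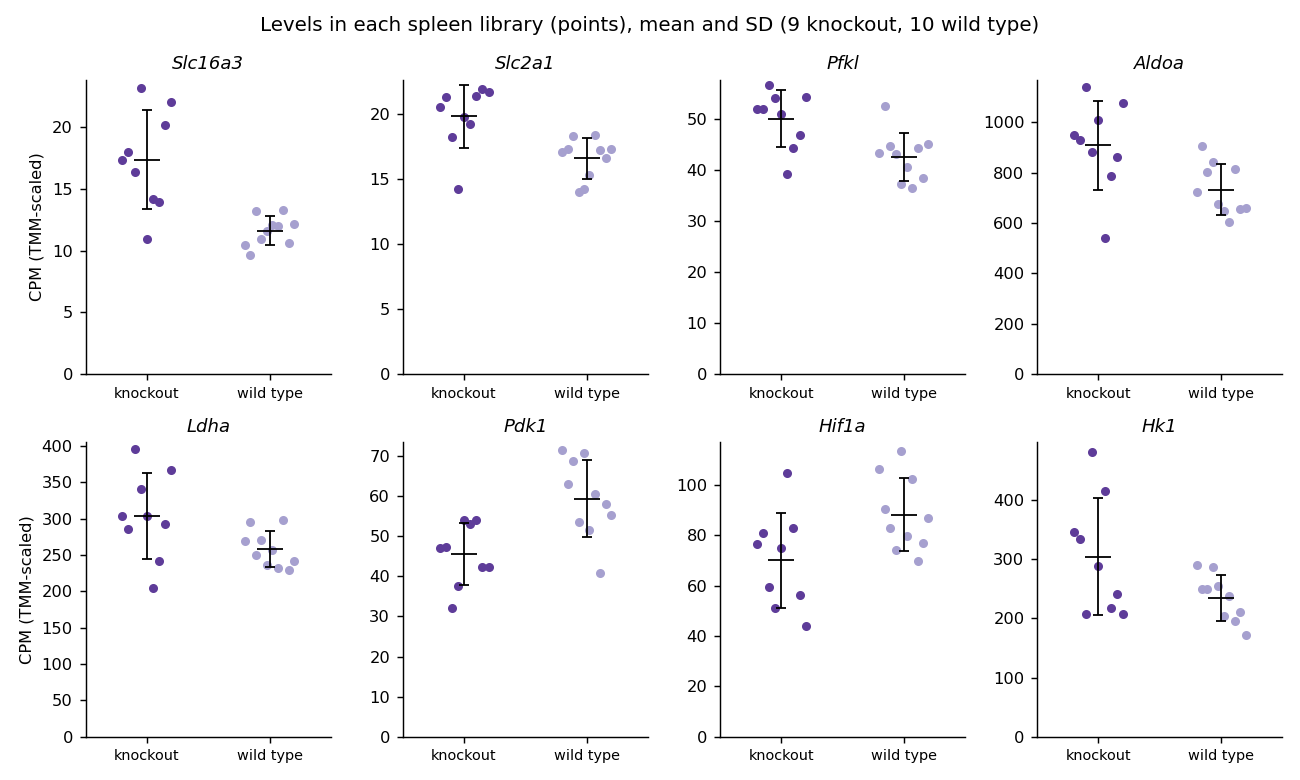
CPM on TMM-scaled library sizes (y axis, from 0) of 8 members in each knockout (9) and wild-type (10) spleen library (points), with means and SD bars. Slc16a3 lies above the wild-type range of 9.65 to 13.3 CPM in 8 knockout spleens, and the other members overlap, with Pdk1 and Hif1a leaning lower and the rest leaning higher in the knockout without passing the adjusted test.

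Set against exon length, the order of the genes was alike at its top in both tissues. Aldoa led in naive wild-type dendritic cells at 629 ± 13.0 CPM per kilobase (plain library size, SD, n = 3), followed by Ldha at 153 ± 5.37, Tpi1 at 88.0 ± 4.01 and Pfkfb3 at 84.6 ± 1.62, and the gap between Tpi1 and Pfkfb3 was within their spread. In wild-type spleens Aldoa led at 262 ± 35.3, followed by Ldha at 81.0 ± 7.58, Tpi1 at 35.2 ± 2.42 and Pkm at 31.3 ± 3.68 (SD, n = 10), where Tpi1 and Pkm were within their spread. At the low end lay Slc2a3 with 0.314 ± 0.27, Slc16a1 with 0.622 ± 0.02 and Gapdh with 0.949 ± 0.28 in dendritic cells, and Egln3 with 0.397 ± 0.11 and Bnip3 with 0.970 ± 0.28 in spleens. Tissue and sample handling cannot be told apart here. Copies held 50.8% of the counts of Eno1 and its copies and 59.3% of those of Pgk1 in wild-type spleens, against 28.7% and 3.66% in naive wild-type dendritic cells, and copies held 27.1% of those of Pgam1 in wild-type spleens against 65.1% in naive wild-type dendritic cells. The levels of these genes and of Gapdh are uncertain between tissues. Aldoa, Pkm and Ldha have 5, 8 and 13 copies, which held 0.0542%, 0.0635% and 1.97% of the pooled counts in wild-type spleens. In naive wild-type dendritic cells they held 0.0474%, 0.0301% and 1.53%. How reads with several matches were handled is not given, so the ranks of Aldoa, Pkm and Ldha between tissues also need care.

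Some members share exon bases with a gene on the other strand, and the sources used here do not say whether strand was used in counting. Pfkp overlaps Pitrm1 (41.4 CPM in LPS-treated and 47.5 CPM in naive wild-type cells, plain library size), Ndrg1 overlaps Gm17035 (19.4 and 4.70 CPM in the same order) and Gapdh overlaps Iffo1 (54.0 and 99.9 CPM). On the same scale Pfkp had 994 CPM in LPS-treated and 634 CPM in naive wild-type cells, and 160.0 CPM in knockout and 175 CPM in wild-type spleens, where Pitrm1 had 63.0 and 66.2 CPM in the same order. The partner exceeded the member for Gapdh, for Ankrd37, at 3.61 CPM in LPS-treated and 2.30 CPM in naive wild-type cells beside Ufsp2 at 28.3 and 35.8 CPM, and for Pfkm, at 3.40 and 13.9 CPM beside Senp1 at 22.0 and 24.8 CPM. The longest stretch shared with the named partner was 748 bases for Pfkp, 329 for Ndrg1, 68 for Gapdh, 57 for Ankrd37 and 18 for Pfkm. How many counts the shared bases could add was not tested, so the levels of these members keep that uncertainty.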

How the data were processed

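Total RNA of 12 dendritic cell and 19 spleen libraries was sequenced, and the authors deposited 1 table of whole-number read counts per gene for each library. Per the submitters' processing notes, the build was mm9 and the tools included TopHat 1.3.3, Bowtie 0.0.9v, SAMtools, bedtools and DESeq; the handling of strand and of reads with several matches is not given in the sources used here. Between 57.8 and 62.1% of the gene counts up to 200 in each library were even. Reads that match a gene and its copies may have been split between them.

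Counts were tested as deposited with edgeR 4.0.16 (R 4.3.3) by its quasi-likelihood test after its filter on low counts and TMM scaling, with Benjamini-Hochberg adjustment over all genes and a threshold of 0.05. Dendritic cells (12 libraries, 16965 genes) and spleens (19 libraries, 20371 genes) were fitted separately, and the method was tested on simulated data. CPM values use TMM-scaled library sizes unless called plain. Alternatives used limma 3.58.1 (voom with sample weights), DESeq2 1.42.0, other scaling, no filter, a replicate block and left-out libraries. Shares of isoenzyme counts were compared by exact two-sided permutation tests. Intervals from such shares cover the spread between libraries only. Pseudogene copies were found with blastn 2.17.0 (at least 90% identity over 200 bases). Gene positions are GRCm38 annotation matched by gene ID, not converted from mm9. No 2 replicates agreed within counting noise (lowest chi-square per gene 24.8).

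Replicate numbers were not taken as pairs: deviations of same-numbered libraries correlated at -0.09 to 0.07 in dendritic cells, never over 0.1, and at -0.08 to 0.29 in spleens. The members and all gene lists were chosen with earlier results of these data known. Values are given for every library for the 6 called members with the largest change in each comparison and for Hif1a, Hk2, Ldha, Slc2a1 and Gapdh, with others added for their role after their values were seen; pathway genes are among the 4 with the smallest p of their list.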

Additional observations from a re-analysis of the deposited data

Results flagged for a closer look

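In each spleen group the highest and lowest library was compared with its nearest neighbour over the group's range (Dixon's criterion), for 66 member values and 18 shares; chance gives such a gap in about 1 in 20 groups. Knockout spleen 4 was low for Slc2a1, the basal glucose transporter, at 14.2828 CPM, and for its share of the sugar transporter counts, at 17.01797%. The same library was high for Pfkm, the muscle phosphofructokinase, at 93.6519 CPM and low for the share of Pfkfb3 among the Pfkfb3 and Pfkfb4 counts, at 78.2942%. It also had the highest summed erythroid markers, at 158206 CPM, and the part of these in its values was not tested. Knockout spleen 9 was high for Eno2 at 15.3191 CPM and for Ankrd37 at 16.5318 CPM, and knockout spleen 3 was high for Egln3 at 2.7168 CPM. Wild-type spleen 5 was high for Aldoc at 8.62328 CPM and for its share of the aldolase counts at 1.25826%, and wild-type spleen 8 was high for Pgam1 at 25.7266 CPM.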

How the results depend on the processing

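Of the members' log2 fold changes under the alternatives, 1352 kept direction and side of the threshold, 103 lost a call, 45 gained one and 26 changed sign, none of them a called value; the causes were not tested. Without composition factors LPS raised 7 and lowered 7 members in wild-type cells and raised 8 and lowered 5 in cells labelled knockout, and Aldoa (-0.27), Ldha (-0.29), Slc16a3 (-0.0022) and Bnip3 (-0.29) changed sign in wild-type cells, as did Aldoa (-0.27) in cells labelled knockout. In wild-type cells 5 members were lower under DESeq2 and under voom, 4 were lower in cells labelled knockout under voom, and Slc2a3 had 0.30 in wild-type cells under voom. In spleens, 2 members were higher and 1 lower under DESeq2, 3 were higher under voom, 0 without the filter and 2 without knockout spleens 4, 6 and 9. Shares of all genes called under the alternatives are not given here, so these counts are not set against them. Without the 3 libraries with over 100 Gpr34 counts, only replicate 2 was left among LPS-treated cells labelled knockout. In that fit Pfkfb4 (0.0212), Aldoa (-0.16) and Bnip3 (-0.75) changed sign in cells labelled knockout.

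The replicate block gave 17 higher and 3 lower members in wild-type cells and 12 and 2 in cells labelled knockout. It gave 0 in spleens, where Slc16a3 had 0.56 (edgeR adjusted p = 0.150). Shares of all genes called under the block are not given here either. Under the block Slc2a3 (0.44) and Eno1 (0.0678) changed sign in wild-type cells and Eno1 (0.000225) in cells labelled knockout. The numbers are not shown to pair the libraries: 5 of 9 spleen pairs correlated over 0.1, and a knockout spleen correlated best with its own number in 4 of 9 cases. Between LPS and naive cells labelled knockout the LPS library did so in 2 of 3 cases, with no pair over 0.1, and in the other dendritic cell comparisons in 0 of 2.

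Leaving out 1 library gave 12 to 18 higher and 2 to 4 lower members in wild-type cells. It gave 9 to 15 higher and 2 to 3 lower in cells labelled knockout. In spleens it gave 0 to 3 higher and 0 to 1 lower. Shares of all genes called in those fits are not given here, so these ranges are not set against them. Sign changes occurred in wild-type cells for Slc2a3 (-0.46 to 0.89), Bnip3 (-0.21 to 0.35) and Eno1 (-0.19 to 0.0901). They occurred in cells labelled knockout for Pfkfb4 (-0.32 to 0.11), Aldoa (-0.0585 to 0.14), Eno1 (-0.21 to 0.0860), Slc16a1 (-0.72 to 0.0440), Egln1 (-0.25 to 0.0709), Bnip3 (-0.0932 to 0.83) and Ankrd37 (-0.0357 to 1.29). Share differences between genotypes changed sign, in percentage points, for Hk2 (-0.423 to 0.340 naive, -0.752 to 0.395 with LPS, -0.258 to 0.0459 in spleens), Hk3 (-0.527 to 3.71 naive), Pfkfb3 (-0.0399 to 0.901 with LPS), Eno2 (-4.89 to 10.8 naive) and Egln3 (-0.377 to 1.14 naive, -0.514 to 2.10 with LPS, -0.541 to 1.16 in spleens).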
